A study of Mus musculus with 12 samples.

Results

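The comparison described here set RNA polymerase II (Pol II) signal at genes in wild-type villus of the mouse duodenum against that in villus of mice labelled as double knockouts of the transcription factors HNF4A and HNF4G. Its members were all 6429 genes of the authors' deposited table for this pair of groups, and the rule that chose them used no measured value. Pol II was measured by chromatin immunoprecipitation and sequencing (ChIP-seq) in 3 libraries of wild-type (WT) villus and 3 of labelled-DKO villus, 6 of the 12 libraries of the series. All mice were adult by their labels, and villi were the pieces of EDTA-released duodenal epithelium that a 70 µm filter held back. WT mice received injections of an ethanol and corn oil vehicle. Mice of genotype Hnf4{alpha}{gamma} DKO received 50 mg/kg of tamoxifen daily on 2 days and were killed 1 day after the last injection. Their tissue stood in 3 mM EDTA for 25 minutes, against 35 minutes for WT tissue. Genotype, tamoxifen and EDTA time varied together and cannot be told apart. The alleles, the source of recombinase and whether a library came from 1 mouse are not given in the sources used here.

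HNF4A and HNF4G are closely related nuclear receptors that bind DNA at enhancers and promoters of epithelial genes in gut and liver. In the villus, absorptive enterocytes take up fat, sugars, amino acids, metals and vitamins across a brush border of microvilli, and HNF4 factors are known as regulators of that programme. Pol II occupancy follows the amount of polymerase on a gene, paused near its start or moving along it, and it is related to but not the same as transcript level. The study's design text names HNF4-dependent recruitment of Pol II as the question.

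Each gene has a mean signal, which is the mean over the libraries of the authors' fit of read counts divided by size factors, and a log2 fold change with its standard error (SE), printed after the ± sign. Values of single libraries were not analysed here. The ratio is WT over labelled DKO, and values above 0 stand for genes with more signal in WT villus. A gene was called when the adjusted p-value of the authors' DESeq2 Wald test was under 0.05. Levels per group, given below as rebuilt signal, were computed from the mean signal and the deposited fold changes. The fold changes came from this table and from the authors' table of WT villus and WT crypt. Rebuilt levels assume that the fit also held the WT crypt libraries, with groups of equal size. The mean signal would then include crypt signal. The ratio of the rebuilt levels is the deposited fold change and does not rest on this assumption. Rebuilt levels are not to be compared between genes of different length. The epithelium is a mixture of cells, so fewer cells of a type and less Pol II per cell cannot be told apart.

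The targeted genes were read first. Rebuilt signal at Hnf4a was 1363 in WT and 1986 in labelled-DKO villus, and at Hnf4g it was 1112 and 3046. Both genes thus had more Pol II in the villi labelled DKO, 1.46-fold at Hnf4a and 2.74-fold at Hnf4g in the authors' deposited table, and both were called. The deleted part of either gene and the window that was counted are not given in the sources used here, so signal at these genes does not check the labels, and the second group is called labelled DKO throughout. Hnf4a lies on chromosome 2 from 163332593 to 163398643 of mm9 and shares bases with its antisense gene Hnf4aos, which was higher in WT villus in the authors' deposited table at 0.65 ± 0.09. The headers of the deposited window tables record no strand option, so reads of a gene and an antisense or overlapping partner cannot be told apart.

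The authors' deposited table held 3338 called genes, of 6429 (51.9%). Shares of all genes, here and below, are of these 6429 and not of the genome, and genes such as Lgr5 and Ptprc are not among them. The called genes higher in WT villus numbered 1443 (22.4%), and those higher in labelled-DKO villus numbered 1895 (29.5%). The large changes lay on the WT side. Of the called genes, 420 (6.53%) were more than 2-fold higher in WT and 139 (2.16%) were more than 2-fold higher in labelled-DKO villus. Beyond 4-fold the numbers were 84 and 8, and beyond 8-fold they were 19 and 3. The median fold was 1.59 among genes called higher in WT and 1.40 among those called higher in labelled-DKO villus. Over all genes the middle log2 fold change was -0.08. Centring all genes on that median left 3132 called genes, 1710 higher in WT and 1422 lower in WT, so the majority direction turned with the scaling.

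**Figure D1:**
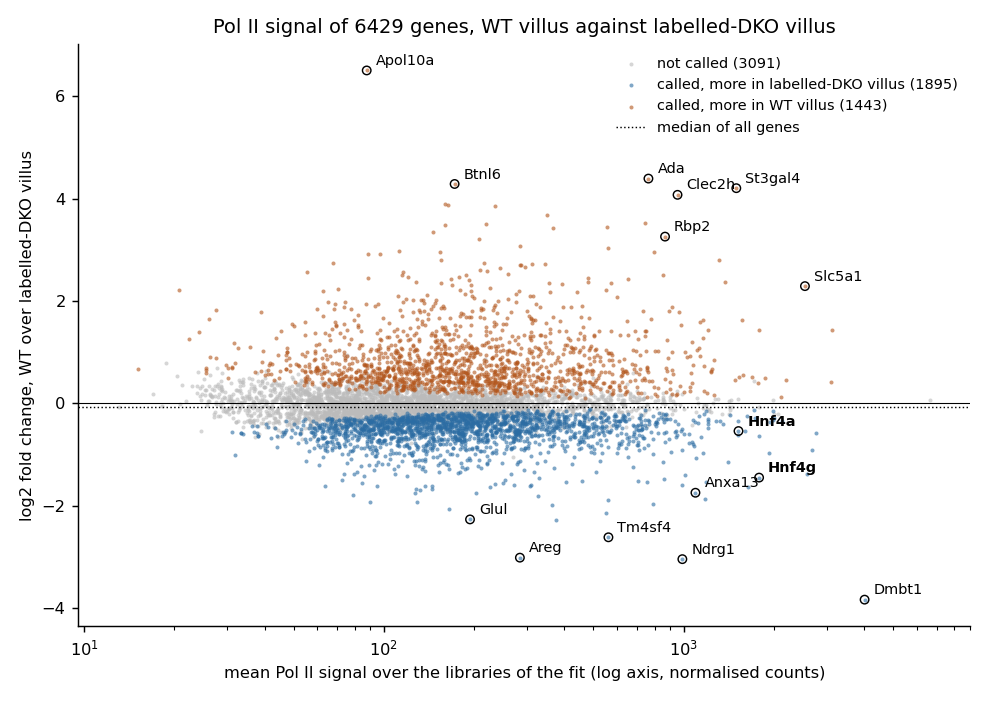
Each point is 1 of 6429 genes, with its mean Pol II signal in normalised counts on a log axis and its log2 fold change (WT over labelled DKO) in the authors' deposited table. Orange and blue points were called (1443 and 1895 genes), grey points were not (3091), and both targeted genes lie below 0 while Ada, St3gal4 and Clec2h lie above 4.

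**Figure D2:**
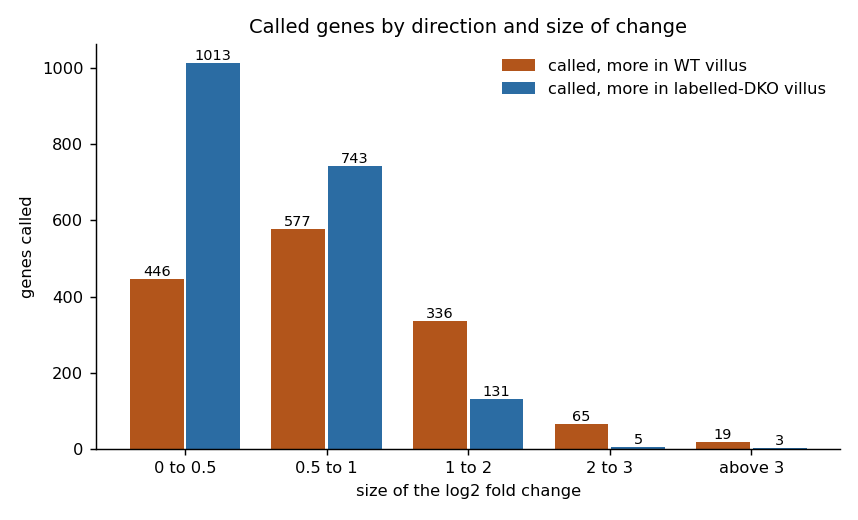
Bars give the number of called genes in each band of the absolute log2 fold change, orange for genes with more Pol II in WT villus and blue for genes with more in labelled-DKO villus. Blue bars are taller below 1, and orange bars are taller above 1, where 420 and 139 genes lie.

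Many genes did not move by much. For 2360 genes (36.7%) the 95% interval of the log2 fold change lay within 0.5 either way, and 1882 of these were not called. A further 1209 uncalled genes had an interval that reached beyond 0.5, so a change of that size was not excluded by the deposited errors. The uncalled genes with the smallest standard errors included Tet3, an enzyme that oxidises methylated cytosine, at 0.04 ± 0.04, and Ago2, the slicer of small RNA silencing, at 0.09 ± 0.05 in the authors' deposited table. Septin9, a cytoskeletal GTP-binding protein, stood at 0.05 ± 0.05, Zc3h3, a zinc finger factor of mRNA export, at 0.07 ± 0.05, and Dock5, an activator of Rac, at 0.10 ± 0.05. The median standard error of all genes was 0.14.

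The largest losses in labelled-DKO villus, among called genes whose mean signal reached the median of 144, were spread over purine, immune, lipid and drug metabolism genes. Ada encodes adenosine deaminase, which turns adenosine into inosine. Its rebuilt signal was 1749 in WT and 83.2 in labelled-DKO villus, a log2 fold change of 4.39 ± 0.18 with a DESeq2 adjusted p of 2.69e-128, as the authors' deposited table gives it. Ada lies on chromosome 2 from 163552307 to 163575975 of mm9, within 10 Mb of Hnf4a, as does Pck1. Btnl6 is one of the butyrophilin-like genes, whose products on villus enterocytes regulate intraepithelial gamma delta T cells. It had a rebuilt signal of 352 in WT and 18.0 in labelled-DKO villus, with a change of 4.29 ± 0.14 and an adjusted p of 1.00e-200. St3gal4 encodes a sialyltransferase of glycoprotein chains and went from 2945 to 159.5, at 4.21 ± 0.10, with an adjusted p listed at 0 in the authors' deposited table. It overlaps 4930581F22Rik, which was also higher in WT at 0.90 ± 0.11. Clec2h is a C-type lectin gene whose product is a ligand of natural killer receptors. Its rebuilt signal was 2122 in WT and 126 in labelled-DKO villus, at 4.08 ± 0.18. The signal left in labelled-DKO villus was small at each of these 4 genes, at 4.76% for Ada, 5.12% for Btnl6, 5.42% for St3gal4 and 5.93% of the WT level for Clec2h.

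Genes of nutrient handling followed. Apoa4, an apolipoprotein of chylomicrons, had a rebuilt signal of 377 in WT and 25.8 in labelled-DKO villus and a change of 3.87 ± 0.22 in the authors' deposited table. Slc6a19 encodes the brush border carrier of neutral amino acids and stood at 3.68 ± 0.20, and Slc6a19os, named as its opposite-strand gene, stood at 2.71 ± 0.17. Pck1, the enzyme that commits carbon to gluconeogenesis, had a change of 3.50 ± 0.22, and Rbp2, the cellular retinol-binding protein of enterocytes, one of 3.26 ± 0.17. Cyp3a25 and Cyp3a11, cytochrome P450 genes that oxidise drugs and steroids, had changes of 3.53 ± 0.11 and 3.45 ± 0.09. Selenop, which encodes the plasma carrier of selenium, stood at 3.43 ± 0.17 and overlaps Ccdc152, which stood at 1.92 ± 0.12. Guca2b encodes uroguanylin, a gut peptide that activates guanylate cyclase C, and had a change of 3.36 ± 0.16. Crip1, a small LIM-domain protein gene, had one of 3.85 ± 0.23. The class I histocompatibility genes Gm8909 and H2-Bl stood at 3.90 ± 0.22 and 3.49 ± 0.18. The H2, Cyp3a, Btnl and Clec2 genes have near-identical copies, and values of single members are uncertain where reads could fall on a copy. Below the limit on mean signal, Apol10a, an apolipoprotein L gene chosen after its value was seen, had the highest change of the table at 6.51 ± 0.36, with a mean signal of 87.7.

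The largest gains in labelled-DKO villus were fewer and included mucosal defence, growth factor and stress genes. Dmbt1 encodes a secreted scavenger receptor that binds bacteria. Its rebuilt signal was 632 in WT and 9051 in labelled-DKO villus, a change of -3.84 ± 0.32 with a DESeq2 adjusted p of 7.88e-32, as the authors' deposited table gives it. Ndrg1, a gene induced by hypoxia and metal stress, went from 288 to 2387, at -3.05 ± 0.30. Areg encodes amphiregulin, a ligand of the epidermal growth factor receptor, and went from 86.4 to 701, at -3.02 ± 0.60. Its standard error was among the largest of the genes named here. Tm4sf4, a tetraspanin-like membrane protein gene, went from 219 to 1345, at -2.62 ± 0.17 with an adjusted p of 9.13e-50. Glul encodes glutamine synthetase, which makes glutamine from glutamate and ammonia, and stood at -2.27 ± 0.23. Tspan8, a tetraspanin of epithelial cells, stood at -2.14 ± 0.28, and Gcnt3, a glycosyltransferase that branches mucin O-glycans, at -2.07 ± 0.23. Krt19, a keratin of simple epithelia, had a change of -1.88 ± 0.33, and Slc6a6, the taurine carrier, one of -1.87 ± 0.28. Pank3, an enzyme of coenzyme A synthesis, had a change of -1.81 ± 0.26, and Pdk4, the kinase that shuts down pyruvate dehydrogenase, one of -1.75 ± 0.25 in the authors' deposited table. Anxa13, an annexin of intestinal epithelium, had the smallest error of these genes, at -1.75 ± 0.09. Gp1bb and Septin5 overlap and stood at -2.28 ± 0.60 and -1.98 ± 0.53, so their reads cannot be assigned to one of them. Gm15441 is a noncoding gene antisense to Txnip, the thioredoxin-interacting protein gene, and the 2 genes stood at -1.97 ± 0.21 and -1.59 ± 0.23.

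**Figure D3:**
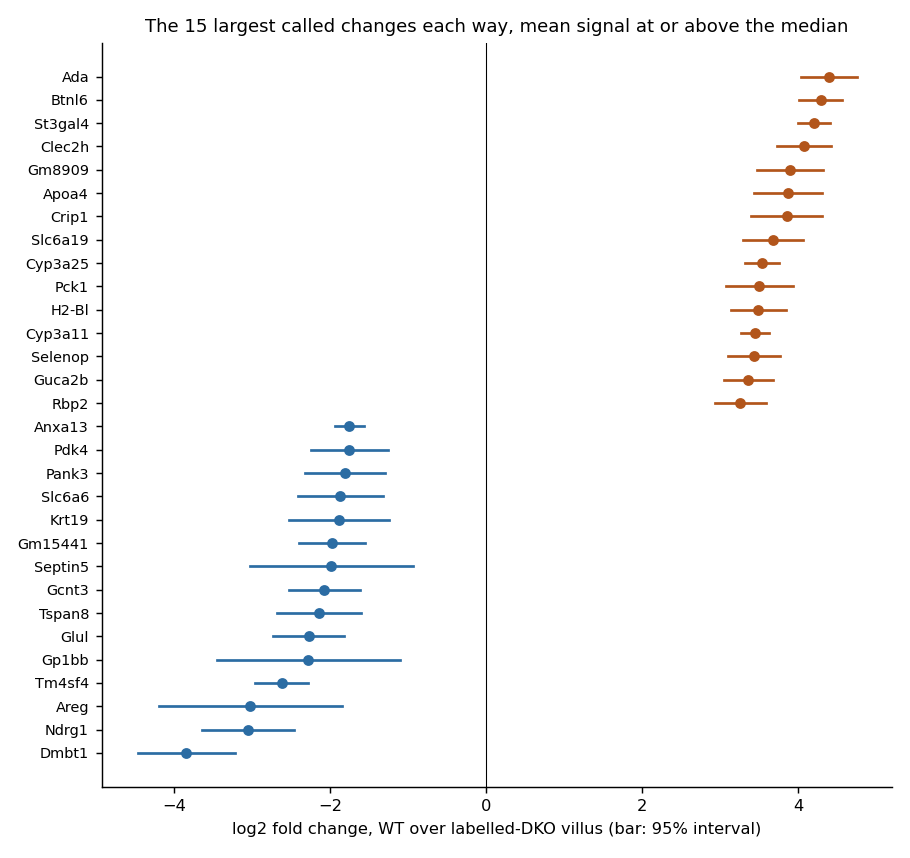
Points give the log2 fold change (WT over labelled DKO) in the authors' deposited table and bars its 95% interval, for the 15 called genes with the largest change in each direction among genes whose mean signal reached the median. The WT-high genes run from 3.26 at Rbp2 to 4.39 at Ada, and the labelled-DKO-high genes from -1.75 at Anxa13 to -3.84 at Dmbt1, with the widest bars at Areg, Gp1bb and Septin5.

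Promoter sequence is shown because HNF4 proteins bind a known DNA site. Sequences come from the RefSeq promoter table of build GRCm38.p6, which holds 300 bases per promoter, 250 before and 50 after the start, and the coordinates in this and the next 2 paragraphs are of that build. Of the 6429 genes, 5161 matched the table by symbol. The 150 bases before the start are printed for the 4 genes with the largest changes each way that have an entry, 5′ to 3′ on the strand of the gene, with a TATA box (TATAAA on either strand) or a match to the motifs named in the next paragraph in capitals.
Ada (chr2:163750240-163750389, minus strand): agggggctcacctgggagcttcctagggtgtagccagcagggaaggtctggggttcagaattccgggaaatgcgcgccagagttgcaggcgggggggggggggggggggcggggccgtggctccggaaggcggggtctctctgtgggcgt
Btnl6 (chr17:34517353-34517502, minus strand): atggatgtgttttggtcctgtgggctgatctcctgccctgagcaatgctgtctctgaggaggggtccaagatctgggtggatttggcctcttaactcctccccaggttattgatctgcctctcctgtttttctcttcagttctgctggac
St3gal4 (chr9:35116865-35117014, minus strand): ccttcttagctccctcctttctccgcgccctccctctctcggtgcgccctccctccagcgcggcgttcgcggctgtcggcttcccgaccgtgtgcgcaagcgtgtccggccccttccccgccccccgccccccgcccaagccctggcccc
Clec2h (chr6:128662235-128662384, plus strand): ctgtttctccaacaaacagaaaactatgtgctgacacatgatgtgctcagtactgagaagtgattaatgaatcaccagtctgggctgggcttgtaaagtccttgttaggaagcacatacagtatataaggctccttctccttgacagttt
Areg (chr5:91139449-91139598, plus strand): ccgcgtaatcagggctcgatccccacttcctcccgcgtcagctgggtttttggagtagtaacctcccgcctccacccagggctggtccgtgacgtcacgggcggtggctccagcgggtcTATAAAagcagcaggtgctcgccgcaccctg
Tm4sf4 (chr3:57425260-57425409, plus strand): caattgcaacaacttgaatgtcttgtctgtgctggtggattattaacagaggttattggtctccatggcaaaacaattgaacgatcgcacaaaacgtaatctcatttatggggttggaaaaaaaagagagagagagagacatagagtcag
Gp1bb (chr16:18622404-18622553, minus strand): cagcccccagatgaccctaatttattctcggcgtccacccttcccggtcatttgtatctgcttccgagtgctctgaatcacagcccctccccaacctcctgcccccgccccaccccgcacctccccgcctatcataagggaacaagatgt
Glul (chr1:153899779-153899928, plus strand): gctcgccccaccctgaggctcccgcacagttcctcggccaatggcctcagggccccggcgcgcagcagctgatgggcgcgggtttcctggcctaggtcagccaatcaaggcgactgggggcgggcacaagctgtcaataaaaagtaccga
The first 4 were lost and the last 4 gained in labelled-DKO villus. Within these 150 bases the capitals mark 1 match, the TATA box of Areg.

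The 3 motifs were counted over all 300 bases on both strands. CAAAGTCCA is the core of the site that HNF4 proteins bind best. CAAAGGTCA holds AGGTCA, the half-site that many nuclear receptors share. TATAAA is the TATA box. No motif is part of another. The core CAAAGTCCA stood in 156 of the 32851 promoters of the whole table (0.475%) and in 44 of the 6589 promoters of genes tested here (0.668%). Among genes called higher in WT it stood in 22 of 1479 promoters (1.49%, Wilson 95% interval 0.984 to 2.24). Among genes called higher in labelled-DKO villus it stood in 7 of 1965 (0.356%, 0.173 to 0.734), and among uncalled genes in 15 of 3145 (0.477%, 0.289 to 0.785). Of the promoters of genes more than 2-fold higher in WT, 12 of 427 held it (2.81%, 1.61 to 4.85). Of those of genes more than 2-fold higher in labelled-DKO villus, 0 of 132 held it, with an upper limit of 2.83%, so the intervals of these 2 classes overlap. CAAAGGTCA stood in 7 of the 427 (1.64%, 0.796 to 3.34) and 0 of the 132 (upper limit 2.83%), against 0.478% of the whole table. These 2 intervals overlap. It stood in 0.879% of promoters of genes called higher in WT and 0.509% of those called higher in labelled-DKO villus. Among uncalled genes the share was 0.223%. TATAAA stood in 15.9% of the 427 and 10.6% of the 132, against 13.6% of the whole table and 8.12% of the promoters of genes tested. The intervals cover counting error only, and promoters of 1 gene can overlap. A match is a description of sequence and not a binding site.

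The matches to CAAAGTCCA among genes more than 2-fold higher in WT are printed with up to 10 bases on each side, in the direction of the gene, with the match in capitals, to show which genes carry the core and how close to the start it lies. A match on the opposite strand appears as its reverse complement.
Alpi (chr1:87101607-87101635, minus strand): tagccagggaCAAAGTCCAtctctgattt
Btnl2 (chr17:34354771-34354799, plus strand): gaacagagccCAAAGTCCAcctgccttcc
Cyp2c65 (chr19:39060880-39060908, plus strand): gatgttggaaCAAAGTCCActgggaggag
Cyp3a11 (chr5:145879945-145879973, minus strand): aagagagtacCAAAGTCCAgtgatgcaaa
H2-T3 (chr17:36190149-36190177, minus strand): ttgcaagttaCAAAGTCCAggactttata
Muc13 (chr16:33794293-33794321, plus strand): acagttgtccTGGACTTTGagtcaaggat
Nat8 (chr6:85832259-85832287, minus strand): caagctcaggTGGACTTTGgctccctgcc
Pdzk1 (chr3:96830069-96830097, plus strand): aatctttgtcCAAAGTCCAgtgagttcca
Sec16b (chr1:157526126-157526154, plus strand): atgtggcaccTGGACTTTGtcagtctcta
Sult1b1 (chr5:87536179-87536207, minus strand): gtgagcaggcCAAAGTCCAttcctggtgg
Treh (chr9:44673152-44673180, plus strand): cctcatagccTGGACTTTGgctgacctgg
Trim31 (chr17:36897990-36898018, plus strand): tacacctgagTGGACTTTGtcacttcgtc
The position of the first base of the match, counted from the start, ran from -186 at Muc13 to 25 at Sult1b1. It was -130 at Trim31, -116 at Cyp2c65, -109 at Cyp3a11, -71 at Treh, -41 at Btnl2, -19 at Alpi and 14 at Pdzk1. The genes serve digestion (Alpi, intestinal alkaline phosphatase, and Treh, trehalase), drug metabolism (Cyp3a11, Cyp2c65 and the sulfotransferase Sult1b1), the mucus and brush border (the membrane mucin Muc13 and the scaffold Pdzk1) and immune contacts (Btnl2 and H2-T3). Log2 fold changes of these genes in the authors' deposited table ran from 1.14 at Cyp2c65 to 3.45 at Cyp3a11. The motif CAAAGGTCA stood in the promoters of Cyp3a25 and Rbp2, printed in the same way, and in those of 2010003K11Rik, Igsf23, Slc5a11 and Spns2.
Cyp3a25 (chr5:146009779-146009807, minus strand): aatataagctCAAAGGTCAgagtaagaaa
Rbp2 (chr9:98490469-98490497, plus strand): gctgggcttaTGACCTTTGactctattat

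Genes were then read by function, in lists of known roles. Counts of each list are to be read against all genes, of which 22.4% were called higher in WT and 29.5% lower in WT. Most tested genes of fat absorption had less Pol II in labelled-DKO villus. Enterocytes rebuild triglyceride from absorbed fatty acids and ship it in chylomicrons. Of the 26 genes listed 23 were tested, and 20 were called higher in WT and 2 lower in WT in the authors' deposited table, with a median log2 fold change of 1.41. Apob, the structural protein of the chylomicron, went from a rebuilt signal of 1599.7 in WT to 206, at 2.96 ± 0.11. Mttp, which loads lipid onto it, stood at 2.51 ± 0.27, and Fabp2, a fatty acid binding protein, at 2.46 ± 0.45. Npc1l1, the cholesterol uptake protein, stood at 2.34 ± 0.23, and the sterol exporters Abcg5 and Abcg8 stood at 1.45 ± 0.11 and 1.63 ± 0.19. The pair of enzymes that close triglyceride synthesis parted. Dgat1 was higher in WT at 1.41 ± 0.18, and Dgat2 was higher in labelled-DKO villus at -1.54 ± 0.53 in the authors' deposited table. Plin2, a coat protein of lipid droplets, was also higher in labelled-DKO villus, at -1.09 ± 0.17. Fabp1, the other abundant fatty acid binding protein of the villus, changed less, at 0.49 ± 0.18 with an adjusted p of 0.0180. Agpat2, an earlier enzyme of triglyceride synthesis, stood at -0.15 ± 0.18 and was not called, and Sar1b, a coat GTPase of chylomicron export, stood at 0.39 ± 0.10.

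Every tested gene of the list of brush border digestive enzymes and receptors was lower in labelled-DKO villus. Of 26 listed genes 23 were tested, and all 23 were called higher in WT in the authors' deposited table, with a median of 1.61 and a lowest value of 0.76. Enpp7, the alkaline sphingomyelinase, went from a rebuilt signal of 193 to 25.6, at 2.92 ± 0.16. Alpi, intestinal alkaline phosphatase, stood at 2.65 ± 0.46, and Ggt1, which splits glutathione, at 2.61 ± 0.12. Lactase (Lct) stood at 2.44 ± 0.29 and sucrase-isomaltase (Sis) at 2.38 ± 0.38, while maltase-glucoamylase (Mgam) stood at 1.42 ± 0.25. Among peptidases, aminopeptidase N (Anpep) stood at 0.84 ± 0.30 and the meprin subunit Mep1b at 1.88 ± 0.28. Cubn, the receptor of vitamin B12 with intrinsic factor, and Xpnpep2, an aminopeptidase, had the smallest changes, at 0.76 ± 0.10 and 0.76 ± 0.21.

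Sugar and amino acid carriers moved the same way. Of 13 tested genes of sugar uptake, fructose breakdown and glucose release, 11 were called higher in WT in the authors' deposited table, with a median of 1.41. Slc5a1, the sodium glucose carrier of the brush border, went from a rebuilt signal of 5083 to 1039, at 2.29 ± 0.18. Slc2a5, the fructose carrier, stood at 1.87 ± 0.22, and Khk, the kinase that starts fructose breakdown, at 1.62 ± 0.12. Slc2a2, the basolateral glucose carrier, changed less, at 0.86 ± 0.23. Fbp1 and Slc37a4, which act in glucose release, stood at 0.28 ± 0.14 and 0.23 ± 0.19 and were not called. All 12 tested carriers of amino acids and peptides were called higher in WT, with a median of 1.51. Slc6a20a, an imino acid carrier, stood at 2.21 ± 0.11, Slc36a1, a proton-coupled amino acid carrier, at 1.95 ± 0.12, and Slc15a1, the peptide carrier, at 1.53 ± 0.18. The heavy chains of heteromeric carriers had the smallest changes, 0.42 ± 0.16 at Slc3a1 and 0.55 ± 0.11 at Slc3a2.

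Genes of the microvillus were mostly called lower in labelled-DKO villus, and genes of the lateral junction were called in both directions. Of 22 tested microvillus genes 17 were called higher in WT and 3 lower in WT in the authors' deposited table, with a median of 1.07. Eps8l3 and Slc9a3r1, which tie actin and membrane proteins at the brush border, stood at 2.45 ± 0.19 and 2.36 ± 0.15. Cdhr2, a protocadherin that links the tips of microvilli, stood at 2.37 ± 0.17, and Pdzk1, a scaffold of carriers, at 1.88 ± 0.09. Villin (Vil1), the actin bundler of the core, changed less, at 0.74 ± 0.16. Ezrin (Ezr), the membrane to actin linker, stood at 0.43 ± 0.25 and was not called. Of the others, those with more signal in labelled-DKO villus were Myo1d, a class I myosin, at -1.39 ± 0.11, the actin regulators Baiap2l1 at -0.78 ± 0.23 and Mical2 at -0.66 ± 0.11. Of 22 tested junction genes 7 were called higher in WT and 8 lower in WT, with a median of 0.05. Over all genes the shares were 22.4% and 29.5%, so calls in both directions do not set this list apart. The claudins Cldn15, Cldn7, Cldn23 and Cldn4 were higher in WT, led by Cldn15 at 1.71 ± 0.15. Several adherens junction genes were higher in labelled-DKO villus, with p120 catenin (Ctnnd1) at -0.88 ± 0.20, E-cadherin (Cdh1) at -0.60 ± 0.19 and plakoglobin (Jup) at -0.47 ± 0.13, while alpha-catenin (Ctnna1) was not called at -0.21 ± 0.15. The tight junction scaffold Tjp1 stood at -0.74 ± 0.21. Dsg2, a desmosomal cadherin, and Pkp3, a desmosomal plaque protein, stood near 0, at -0.03 ± 0.08 and 0.02 ± 0.15.

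Most tested genes of detoxification and of purine metabolism were lower in labelled-DKO villus, and genes of metal and vitamin A handling were called in both directions. Of 32 tested xenobiotic genes 24 were called higher in WT and 4 lower in WT in the authors' deposited table, with a median of 0.95. Beside the 2 Cyp3a genes, the glutathione transferase Gstm3 stood at 3.21 ± 0.11 and the conjugate exporter Abcc2 at 2.80 ± 0.27. Other glutathione transferases moved the other way, with Gstk1 at -1.80 ± 0.21 and Gsta4 at -1.58 ± 0.45. Ugt1a1, which glucuronidates bilirubin, and Cyp2j6 stood at -0.04 ± 0.13 and 0.05 ± 0.12. Ugt1a genes share exons, and their values are uncertain. Of 16 tested genes of metal and vitamin A handling 9 were called higher in WT and 3 lower in WT, with a median of 0.52. The zinc importer Slc39a4 stood at 2.72 ± 0.21, the iron importer Slc11a2 at 1.69 ± 0.11 and ferritin heavy chain (Fth1) at 1.65 ± 0.15. Lower in WT were the transferrin receptor Tfrc at -0.71 ± 0.20, the retinal reductase Dhrs3 at -0.34 ± 0.10 and Isx, a homeobox repressor of vitamin A uptake, at -1.19 ± 0.13. Retsat, a retinol saturase, and Slc31a1, the copper importer, stood at 0.03 ± 0.15 and -0.12 ± 0.11 and were not called. Of 14 tested purine and pyrimidine genes 11 were called higher in WT and 0 lower in WT, with a median of 1.59. After Ada came the purine phosphorylase gene Pnp2 at 2.56 ± 0.41, cytidine deaminase (Cda) at 2.35 ± 0.18 and the nucleoside carrier Slc28a1 at 1.88 ± 0.12. Xdh, which ends purine breakdown at uric acid, stood at 1.87 ± 0.18. The nucleotide enzymes Entpd8, Ampd3 and Upp1 lay close to 0, at -0.01 ± 0.25, -0.04 ± 0.09 and -0.11 ± 0.20.

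Epithelial genes that face immune cells were lower in labelled-DKO villus as well. Of 10 tested butyrophilin-like genes and lymphocyte ligands 9 were called higher in WT in the authors' deposited table, with a median of 1.79. Btnl1, which acts with Btnl6, stood at 2.09 ± 0.22, Clec2e at 3.03 ± 0.40 and the chemokine Ccl25, which draws lymphocytes to the small intestine, at 1.80 ± 0.15. Il15, a growth factor of intraepithelial lymphocytes, stood at 0.76 ± 0.15, while Il18 was not called at 0.26 ± 0.15. Of 6 tested genes of class II antigen presentation 5 were called higher in WT. H2-Ab1 and H2-Aa, the 2 chains of a class II molecule, stood at 2.24 ± 0.15 and 1.85 ± 0.14, and the invariant chain Cd74 at 1.33 ± 0.24. Their activator Ciita stood at 0.34 ± 0.09, and H2-DMa, a peptide loading chaperone, at -0.06 ± 0.08. Of 16 tested class I genes 9 were called higher in WT and 1 lower in WT. The median was 0.67, and it was 0.23 over the genes that overlap no other. H2-K1 went from a rebuilt signal of 604 to 71.3, at 3.08 ± 0.21, and the light chain B2m stood at 1.55 ± 0.10. Most tested genes of peptide supply did not pass the test. Tap1 and Tap2, the peptide transporter, stood at 0.20 ± 0.14 and -0.11 ± 0.13, and Psmb8, an immunoproteasome subunit, at 0.08 ± 0.24. Pdia3, a chaperone of loading, was higher in labelled-DKO villus at -0.67 ± 0.18. Immune cells carry class I and II genes too. Of 19 listed immune cell markers 5 were tested, and their summed rebuilt signal was 512 in WT and 705 in labelled-DKO villus. The T cell and leukocyte markers Cd3e and Ptprc were not among the genes tested. Cd68, a macrophage lysosomal protein gene, was called at -1.18 ± 0.23, higher in labelled-DKO villus. It had the highest mean signal of the 5 tested, at 248, and a sum gives genes of higher signal more weight. Gzma, Gzmb, Coro1a and Cd52 were not called, from -0.28 ± 0.25 at Coro1a to 0.27 ± 0.27 at Cd52. The part of immune cells in these results was not tested. None of the 16 listed mesenchyme and vessel markers was among the genes tested.

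Transcription factors of the intestine were called in both directions, as were genes at large. Of 24 tested 7 were called higher in WT and 9 lower in WT in the authors' deposited table, with a median of -0.08. Over all genes the shares were 22.4% and 29.5% and the median was also -0.08, so these counts do not set the list apart. Maf, a basic leucine zipper factor, went from a rebuilt signal of 299 to 80.2, at 1.90 ± 0.11. Gata5 was higher in WT at 1.26 ± 0.13 and Gata4 was higher in labelled-DKO villus at -0.92 ± 0.08, while Gata6 stood at -0.01 ± 0.11. Creb3l3, a membrane-bound factor of lipid genes, stood at 1.23 ± 0.11, and Klf4, a factor of differentiation, at 1.07 ± 0.23. Cdx2, the homeobox factor of intestinal identity, was higher in WT by a smaller amount, at 0.59 ± 0.09. With Hnf4a, Hnf4g and Isx, the genes higher in labelled-DKO villus included the forkhead factor Foxa1 at -0.88 ± 0.13 and the crypt-enriched Klf5 at -0.76 ± 0.20. Prdm1, a repressor of the fetal gut programme, stood at 0.03 ± 0.14. Of 21 tested nuclear receptors and coactivators 12 were called higher in WT and 2 lower in WT, with a median of 0.42. The pregnane receptor Nr1i2, which senses xenobiotics, stood at 1.09 ± 0.15, the thyroid receptor Thra at 1.06 ± 0.16 and the shared partner Rxra at 0.85 ± 0.12. Ppara, the fatty acid receptor, and Nr1h4, the bile acid receptor, were the 2 higher in labelled-DKO villus, at -0.85 ± 0.10 and -0.77 ± 0.11.

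Genes of fatty acid oxidation and of lipid synthesis were called more often on the labelled-DKO side, as were all genes. Of 20 tested genes of fatty acid oxidation and ketogenesis 6 were called higher in WT and 10 lower in WT in the authors' deposited table, with a median of -0.15. Both shares were above the 22.4% and 29.5% of all genes, whose median was -0.08. Cpt1a, which admits fatty acids into mitochondria, went from a rebuilt signal of 388 to 1119, at -1.53 ± 0.08, beside Pdk4. The trifunctional protein genes Hadhb and Hadha stood at -1.03 ± 0.13 and -0.81 ± 0.09. The genes higher in WT were led by the peroxisomal thiolase Acaa1a at 1.12 ± 0.14. Etfb, an electron carrier subunit, stood at -0.01 ± 0.08 and was not called. Of 11 tested genes of cholesterol and fatty acid synthesis 6 were called lower in WT and 1 higher in WT, with a median of -0.33. Elovl6, a fatty acid elongase, stood at -1.54 ± 0.21 and squalene synthase (Fdft1) at -0.84 ± 0.15. The sterol carrier Stard4 was the 1 higher in WT, at 0.26 ± 0.11. Subunits of oxidative phosphorylation were called equally often each way. Of 42 tested 7 were called higher in WT and 7 lower in WT, shares below the 22.4% and 29.5% of all genes. The median was 0.02, between -0.66 ± 0.15 at Ndufb10, a complex I subunit, and 0.61 ± 0.11 at Sdhb, a complex II subunit.

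Crypt, repair and secretory genes gave mixed counts with some large single changes. Of 25 listed Wnt and crypt stem genes 10 were tested, 7 of them called lower in WT and 1 higher in WT in the authors' deposited table, with a median of -0.41. The cyclins Ccnd2 and Ccnd1 stood at -1.11 ± 0.13 and -0.74 ± 0.18, Lrig1, a brake on growth factor receptors, at -0.44 ± 0.09 and Myc at -0.67 ± 0.18. Sp5, a Wnt target that encodes a zinc finger factor, was the 1 higher in WT, at 2.75 ± 0.27, and Sox9 was not called at 0.26 ± 0.19. The stem cell markers Lgr5 and Olfm4 were not among the genes tested. Of 34 listed cell cycle genes 7 were tested and 3 were called, all higher in labelled-DKO villus. They were the replication clamp Pcna at -0.62 ± 0.20, the helicase subunit Mcm7 at -0.54 ± 0.11 and its loader Cdc6 at -0.45 ± 0.15. Of 13 tested injury repair and fetal-like genes 7 were called lower in WT and 0 higher in WT, with a median of -0.31. Beside Areg, Tm4sf4 and Krt19, the keratin Krt18 stood at -1.22 ± 0.26 and annexin Anxa2 at -0.58 ± 0.18. The YAP target Ccn2 and the growth factor Hbegf stood near 0, at -0.05 ± 0.21 and 0.04 ± 0.19. Of 17 tested secretory cell genes 4 were called higher in WT and 6 lower in WT, shares near the 22.4% and 29.5% of all genes. With Dmbt1, the pancreatic stone protein gene Reg1 stood at -1.62 ± 0.35, the disulfide isomerase Agr2 at -1.06 ± 0.13 and Spink4 at -0.81 ± 0.10, all higher in labelled-DKO villus. The defining goblet cell genes Muc2 and Tff3 were not called, at 0.15 ± 0.17 and 0.17 ± 0.18. The related lectin genes Reg3b and Reg3g were higher in WT, at 1.52 ± 0.17 and 0.60 ± 0.20, as was Pigr, the carrier of secreted antibody, at 1.01 ± 0.33.

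Early response genes were higher in WT villus. Of 18 tested immediate early genes 13 were called higher in WT and 2 lower in WT in the authors' deposited table, with a median of 0.78. Zfp36, which speeds decay of cytokine transcripts, went from a rebuilt signal of 1403 to 403, at 1.80 ± 0.22, and Junb and Jun stood at 1.33 ± 0.22 and 1.33 ± 0.18. Egr1 moved the other way, at -1.18 ± 0.22. Such genes respond within minutes to tissue handling, and EDTA time differed between the groups, so its part cannot be told apart from that of genotype. Of 20 tested chaperone and unfolded protein genes 2 were called higher in WT and 7 lower in WT, with a median of -0.22. The share lower in WT was near the 29.5% of all genes, whose median was -0.08. The mitochondrial chaperones Hspd1 and Hspe1 stood at -1.11 ± 0.18 and -0.77 ± 0.22, Hsp90ab1 at -0.90 ± 0.20 and the endoplasmic reticulum chaperone Hspa5 at -0.76 ± 0.26. Of 21 tested hypoxia and glycolysis genes 9 were called higher in WT and 4 lower in WT. Of the glycolysis enzymes, Tpi1 and Gapdh were higher in WT at 0.96 ± 0.16 and 0.81 ± 0.24, while Aldoa was higher in labelled-DKO villus at -0.97 ± 0.23. Hif1a and its targets Ndrg1 and Ddit4 were higher in labelled-DKO villus, with Hif1a at -0.57 ± 0.16 and Ddit4 at -1.29 ± 0.33, and its targets Egln3 and Vegfa were higher in WT, at 0.98 ± 0.13 and 0.63 ± 0.11. Signalling lists had similar counts each way, to be read against the 22.4% and 29.5% of all genes. MAPK genes had 5 called higher in WT and 4 lower in WT of 15, and BMP and SMAD genes 2 and 3 of 9, with the inhibitor Smad7 at 0.91 ± 0.11 and the receptor Bmpr1a at -0.79 ± 0.13. Of 9 tested clock genes 4 were called higher in WT, with the repressor Nr1d1 at 1.41 ± 0.25 and the output factor Dbp at 1.17 ± 0.14, and 2 higher in labelled-DKO villus, with Per1 at -0.86 ± 0.26. The time of day of collection is not given in the sources used here.

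Many genes of cytosolic ribosomes and translation were higher in labelled-DKO villus by small amounts. Of 74 tested genes of cytosolic ribosomal proteins 59 were called lower in WT and 1 higher in WT in the authors' deposited table, with a median of -0.65. Rpl3, a core protein of the large subunit, stood at -1.17 ± 0.24, the stalk protein Rplp0 at -1.14 ± 0.26, Rpl23a at -1.12 ± 0.16 and Rps24, of the small subunit, at -1.10 ± 0.18. Rpl29 was the 1 higher in WT, at 0.59 ± 0.16, and Rps29 and Rpl18 were not called, at -0.09 ± 0.15 and -0.17 ± 0.21. These genes have many processed copies in the genome, so their values are uncertain where reads could fall on a copy. Of 42 mitochondrial ribosomal proteins 11 were called higher in labelled-DKO villus, a share below the 29.5% of all genes, and 1 higher in WT, with a median of -0.17. The farthest from 0 was Mrps14 at -0.92 ± 0.14. Of 27 tested translation factors and tRNA synthetases 20 were called lower in WT and 0 higher in WT, with a median of -0.38. The initiation factor subunits Eif3a and Eif2s2 stood at -0.77 ± 0.13 and -0.68 ± 0.13, and Eif6 was not called at 0.15 ± 0.13. Of 14 tested ribosome biogenesis genes 6 were called lower in WT and 3 higher in WT, with nucleolin (Ncl) at -0.92 ± 0.16 and the pseudouridine synthase Dkc1 at 1.25 ± 0.19. Of 37 tested splicing factors 23 were called lower in WT and 2 higher in WT, with a median of -0.35. The RNA-binding Hnrnpa3 stood at -1.25 ± 0.29 and Hnrnpd at -0.80 ± 0.17, while Srsf2 was higher in WT at 0.69 ± 0.21. Of 26 tested proteasome subunits 13 were called lower in WT and 0 higher in WT, the farthest from 0 being Psmc6 at -0.50 ± 0.17.

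The transcription machinery itself was also read. Of 27 tested genes of Pol II, Mediator, elongation and pausing factors 13 were called lower in WT and 3 higher in WT in the authors' deposited table, with a median of -0.22. The Mediator kinase module subunit Med13 stood at -1.40 ± 0.30, the elongation scaffold Aff4 at -0.80 ± 0.20 and the elongation factor Supt6 at -0.65 ± 0.08. Of the pausing complex NELF, Nelfe and Nelfcd were higher in WT, at 0.77 ± 0.17 and 0.37 ± 0.11, and Nelfb was higher in labelled-DKO villus at -0.20 ± 0.09. The largest Pol II subunit Polr2a did not pass the test, at -0.05 ± 0.06, nor did Cdk9, the kinase that releases paused Pol II, at -0.09 ± 0.12. Lysosome and autophagy genes had 3 called higher in WT and 4 lower in WT of 22 tested, with the sphingolipid activator Psap at -0.94 ± 0.13 and the cholesterol exporter Npc1 at 0.69 ± 0.06. Of 4 tested histone genes, H1f0 and H3f3b, which are not tied to replication, were called higher in WT at 1.01 ± 0.30 and 0.61 ± 0.18.

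**Figure D4:**
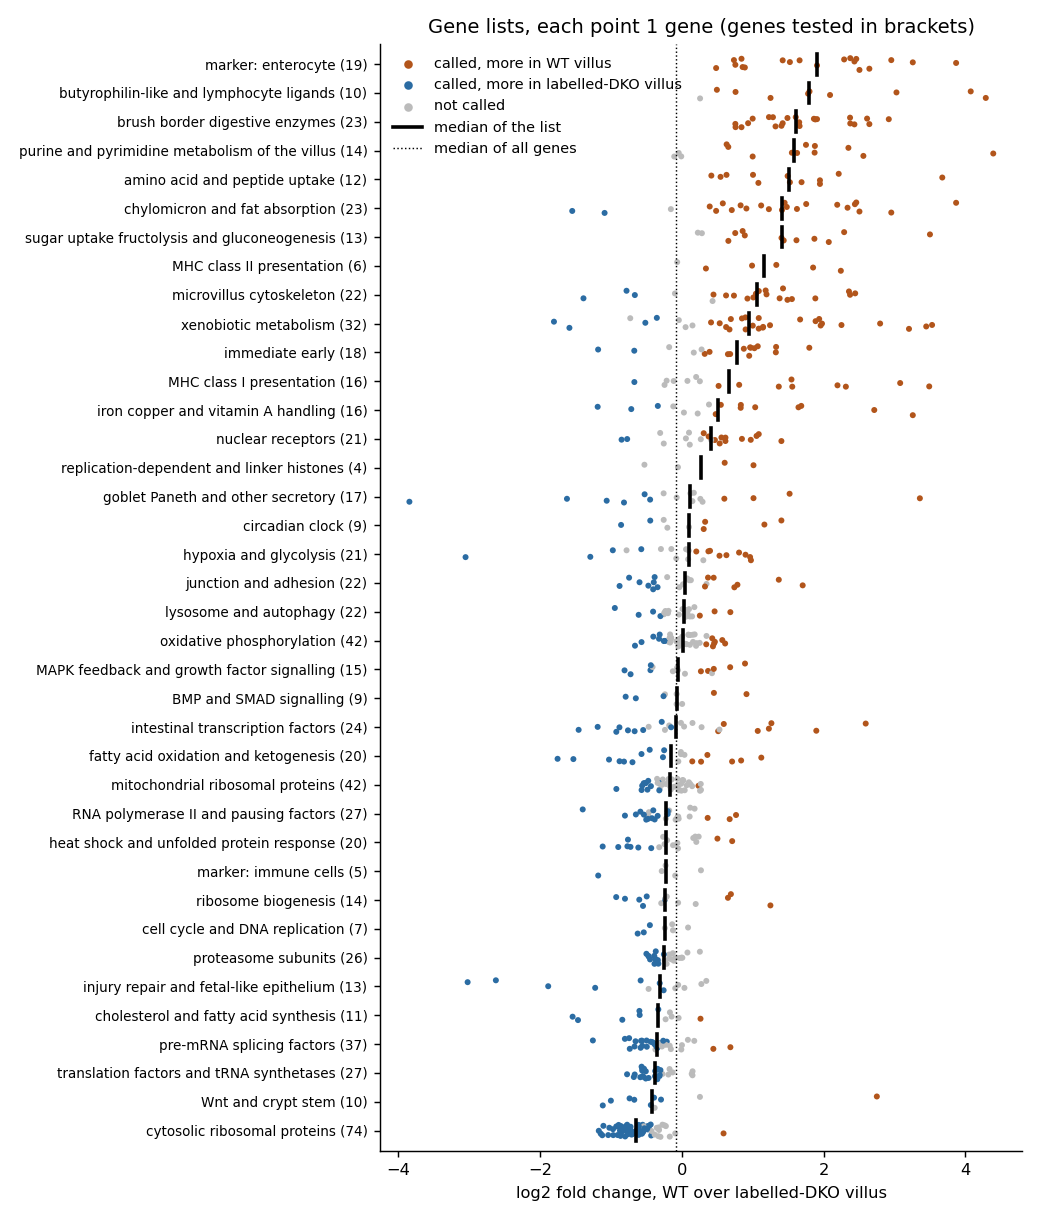
Each point is 1 gene placed by its log2 fold change (WT over labelled DKO) in the authors' deposited table, in rows ordered by the median of the list (black bar), with the median of all genes dotted. Enterocyte markers, with a median of 1.91, and absorptive lists stand at the top, and cytosolic ribosomal proteins, with a median of -0.65, at the bottom.

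Of 20 listed enterocyte markers 19 were tested, and all 19 were called higher in WT in the authors' deposited table, with a median of 1.91. Their summed rebuilt signal was 31531 in WT and 10366 in labelled-DKO villus. Both groups are labelled villus, so a change between them does not check the cell type of either. Several of these markers, among them Apob, Sis and Slc5a1, were already read in the absorptive lists. Against the shares over all genes, 22.4% higher in WT and 29.5% lower in WT, the absorptive lists had larger shares of called genes on the WT side, and the ribosomal protein, translation and splicing lists had larger shares on the other. Lists overlap in members, and their genes are not independent replicates.

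Whether promoter or gene body signal moved could not be read from the deposited counts, because no line of the 2 window tables names their columns and the 9 count columns in each were used in no step. The windows themselves were examined, since they decide what such counts hold. Each promoter window ran from 100 bases before to 301 after the transcript start. On the plus strand the gene body window began 350 bases after the start in all 19858 transcripts, and none shared a base with its promoter window. On the minus strand it began 350 bases before the start in all 21190 transcripts, and it held the whole promoter window in every one. The lengths point the same way. Among genes with 1 transcript, the gene body window was 850 bases shorter than the gene in 3284 of 3718 on the plus strand (88.3%). On the minus strand it was 850 bases longer in 4414 of 4857 (90.9%). A gene body count from these windows therefore includes promoter reads for minus strand genes and not for plus strand genes. Which of these windows, if any, the authors' gene table was made from is not given in the sources used here.

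**Figure D5:**
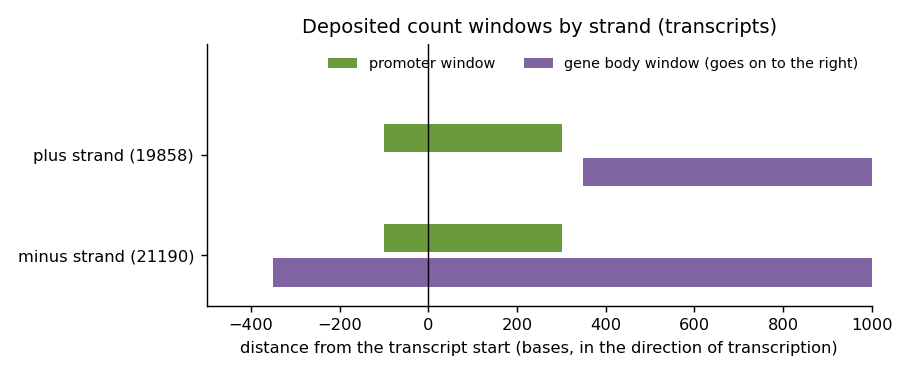
Bars show where the deposited promoter (green) and gene body (purple) windows lie relative to the transcript start, in bases along the direction of transcription, for 19858 plus and 21190 minus strand transcripts. On the minus strand the gene body window begins 350 bases before the start and covers the promoter window.

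The gene table was therefore split by strand. Of 3062 plus strand genes 21.7% were called higher in WT and 29.2% lower in WT in the authors' deposited table, with a median of -0.09. Of 3347 minus strand genes the shares were 23.1% and 29.8%, with a median of -0.07. Among the losses named first, Clec2h and Apoa4 lie on the plus strand and Ada, Btnl6 and St3gal4 on the minus strand. Calls were more frequent in long genes. Of the 1602 genes with the shortest transcript spans, up to 5137 bases, 19.5% were called higher in WT and 20.2% lower in WT. Of the 1601 genes with the longest, from 27793 bases, the shares were 25.2% and 39.0%. The median standard error was 0.20 in the first and 0.10 in the second, and the shares of genes, called or not, below a log2 fold change of -0.5 were 15.7% and 14.8%. The part of precision in this was not tested.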

How the data were processed

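The submitters' processing notes name Bowtie2 2.2.6, SAMtools 0.1.19, Picard, featureCounts, Subread 2.03, DESeq2 1.36.0 and the build mm9, without roles or order. Window lengths (in bases) and positions were taken from 2 count tables made with featureCounts 2.0.3, per the file headers. Their 18 count columns carry no names and were not used, so depth per library was not analysed here. For each gene the authors deposited a mean signal, a log2 fold change with its standard error, a Wald score, a p-value and its adjusted p-value. Any shrinkage is not stated. The labels list 3 libraries per group, and nothing says that they came from separate mice, so errors measure the spread between libraries, which may be technical.

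Signs follow the table's name, WT before DKO. As a check, among genes within 0.5 of 0 on the log2 scale in the authors' other table, of villus and crypt, the standard error in this table was the larger one in 75 of 75 genes above 1 and in 0 of 99 below -1. A gene with few reads in labelled-DKO libraries has the larger error in the table that holds them.

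Adjusted p-values were recomputed with Benjamini-Hochberg and differed from the deposited ones by at most 2.66e-07. This adjustment, the Wald calls and the centring were tested on simulated data, and the other steps were not. Intervals are 95%. Named genes were Hnf4a and Hnf4g, the 15 largest changes each way among called genes whose mean signal reached the median, up to 4 called members of each list in its main direction, its largest member in the other and up to 2 nearest 0, and the 5 uncalled genes with the smallest errors. Some genes the rule names are not reported here. Genes named beyond it, list members and overlapping or antisense partners included, were chosen after their values were seen. The comparison, the genes and the lists were chosen with earlier results of these data known. Positions were matched by symbol for 6401 genes and by synonym for 17 through RefSeq's GRCm38.p6 names, and gene positions are in mm9 as in the deposited windows.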

Additional observations from a re-analysis of the deposited data

How the results depend on the processing

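The counts of called genes moved by over 1.5 times only with the size of change asked for. With a log2 fold change beyond 1 there were 559 called genes, 420 higher in WT and 139 lower in WT. A Wald test against changes up to 0.5 called 637, of which 484 were higher in WT and 153 lower in WT. Fewer genes can pass a larger limit. An adjusted p under 0.01 (2630 genes), centring (3132), a mean signal of at least 100 (2704 of 4393), genes that overlap no other (2386 of 4599) and genes over 10 Mb from Hnf4a and Hnf4g (3286 of 6330) stayed within that range. Centring shared 2865 calls in the same direction with the uncentred table.

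Medians of lists close to 0 changed sign. Centring took that of intestinal transcription factors to 0.000674, of BMP and SMAD genes to 0.00868 and of MAPK genes to 0.0265. A mean signal of at least 100 took that of secretory genes to -0.0713, of oxidative phosphorylation to -0.0288 and of histones to -0.0531. The cause was not tested. The median of class I genes was 0.67, 0.23 without overlapping genes and 1.55 at a mean signal of at least 100. At that signal the median of class II genes went from 1.16 to 0.67 and that of injury repair genes from -0.31 to -0.52. That of sugar genes was 1.41, and 1.15 without genes near the targets, among them Pck1. Over these alternatives the calls of named genes stayed as they were in 1535 cases, were lost in 187 and gained in 10, with no change of direction. Within the 250 bases before the start, the 9 motif shares recomputed for genes called higher in either group and for those beyond 2-fold in WT stayed inside their intervals, while the share of the whole promoter table with CAAAGTCCA fell from 0.475% to 0.384%.

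No paired analysis was possible because values per library could not be assigned to samples. Leaving out a replicate, other normalisations, and the planned edgeR tests of promoter counts, gene body counts and their ratio were likewise not run, and no result was checked against the loss of 1 library. Low-signal genes carry larger errors: the median standard error was 0.19 among the 1608 genes of lowest mean signal and 0.11 among the 1607 of highest.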

Other observations

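Gene families read by the shared start of their symbols, a grouping made after the values were seen, differed in the balance of calls. Of 162 Slc genes, the membrane carriers, 77 (47.5%) were called higher in WT and 27 (16.7%) lower in WT in the authors' deposited table, from the amino acid carrier Slc6a19 at 3.68 ± 0.20 to the taurine carrier Slc6a6 at -1.87 ± 0.28. Among 24 Cyp genes 15 were called higher in WT and 2 lower in WT, the lowest being the sterol hydroxylase Cyp27a1 at -1.49 ± 0.24. Zfp genes encode zinc finger proteins. Of 89 tested 5 were called higher in WT and 28 (31.5%) lower in WT, against 22.4% and 29.5% of all genes, so the share in labelled-DKO villus was near that of all genes. They ran from Zfp36 at 1.80 ± 0.22 to Zfp703 at -0.75 ± 0.20. Of 14 small nucleolar RNA host genes (Snhg) 8 were called lower in WT and 0 higher in WT, with Snhg5 at -1.23 ± 0.36 and Snhg1 at -1.21 ± 0.30, and the host gene Gas5 stood at -1.19 ± 0.26. Protein phosphatase genes (Ppp) had 19 of 37 called lower in WT and 6 higher in WT, with Ppp1r15a, a stress-induced phosphatase subunit, at -0.99 ± 0.15. Vps genes of endosomal sorting had 9 of 21 and 1, with Vps26a at -0.63 ± 0.12 and Vps28 at 0.91 ± 0.24. Of 415 long noncoding RNA genes 86 (20.7%) were called higher in WT and 81 (19.5%) lower in WT. Both shares were below the 22.4% and 29.5% of all genes.

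Some of the largest losses lay near each other, which was looked at after the values were seen. Of 83 called genes with a position and a log2 fold change above 2, 23 lay within 100 kb of another, in 10 groups. How often other genes of the table lie that close was not counted, so these numbers do not show clustering. Not all were adjacent, and the stretch of Slc39a4 and Gpt held 8 tested genes. Class I histocompatibility genes and predicted neighbours on chromosome 17 between 36217056 and 36305482 (mm9) had changes from 2.12 to 3.90 in the authors' deposited table. Apoc3 and Apoa4 shared a stretch of chromosome 9, Cyp3a11 and Cyp3a25 one of chromosome 5, and Clca4a and Clca4b, chloride channel accessory genes, one of chromosome 3. The pairs Cdhr2 and Gprin1, and Slc9a3r1 and Nat9, joined brush border genes to neighbours with no known brush border role, with Gprin1 at 2.44 ± 0.24 and Nat9 at 2.32 ± 0.17. Near-identical copies within the histocompatibility, Cyp3a and Clca groups leave their separate values uncertain.

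By chromosome, the share of genes called higher in WT ran from 16.5% of 200 on chromosome 16 to 28.2% of 326 on chromosome 10, against 22.4% of all genes. The share called higher in labelled-DKO villus ran from 19.3% of 83 on chromosome X to 37.5% on chromosome 16, against 29.5% of all genes. These are the extremes over the chromosomes, and whether chromosomes differ was not tested.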
